A study of Mus musculus with 22 samples.

Results

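The genes described here are the nuclear-encoded genes of the mitochondrial respiratory chain and ATP synthase in the anterior cingulate cortex of mice. They were chosen by name: every gene whose symbol began with Nduf, Uqcr, Cox4, Cox5, Cox6, Cox7, Cox8 or Atp5, together with Sdha, Sdhb, Sdhc and Sdhd. Names marked as pseudogenes (-ps, 9 names) were left out. Of the 96 remaining names, 91 had at least 10 counts in at least 10 mice and are called the respiratory chain genes below, out of 17524 genes that passed the same minimum and 37786 in the table. The 5 genes below the minimum were Cox8b, with at most 6 counts in any mouse, Ndufa11b with at most 18, Cox6c2 with at most 16, Ndufb4c with at most 7 and Ndufs6b with at most 6.

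The study asked which genes change in the anterior cingulate cortex after the pathway from the basolateral amygdala has been activated repeatedly. Bulk RNA was sequenced from 12 control and 10 stimulated wildtype male C57BL/6J mice, 1 library per mouse, with tissue taken 48 hours after the last session. All mice were 8 weeks old when procedures began, carried channelrhodopsin under a CamKIIa promoter in the basolateral amygdala and had an optic fiber in the anterior cingulate cortex. Stimulated mice received 9 sessions of blue light, and in control mice the light stayed off, so that the groups differ in light and share virus, implant and handling. The libraries carry numbers in their labels: 1 to 6 and 12 to 17 are controls, 8 to 11 and 18 to 23 are stimulated mice. The labels do not say what separates numbers 1 to 11 (6 control and 4 stimulated mice) from 12 to 23 (6 and 6), while the study's methods mention 2 animal cohorts and a batch covariate. Libraries held 23090483 to 43668462 counts. Of the cortical excitatory neuron markers, all 5 were detected at a summed level of 2906 to 7409 CPM (counts per 1000000 counts of the library), and the 5 striatal neuron markers summed to 82.3 to 160 CPM.

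Oxidative phosphorylation passes electrons from NADH through complex I, or from succinate through complex II, to ubiquinone, then through complex III and cytochrome c to complex IV, where oxygen is reduced. Complexes I, III and IV pump protons across the inner mitochondrial membrane, and ATP synthase uses the gradient to make ATP. Most subunits are encoded in the nucleus and imported, while a small set of hydrophobic core subunits is encoded by the mitochondrial genome; neurons draw most of their ATP from this chain. The name rule took in 7 core and 29 accessory subunit genes of complex I, 4 genes of complex II, 8 of complex III, 18 of complex IV and 17 of ATP synthase. It also took in 8 genes named Ndufaf, which encode assembly factors of complex I and no part of the finished complex. The 17 of ATP synthase count Atp5s, which is named for a coupling factor and is not a standard subunit.

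The genes of the chain spanned a wide range of levels, and the muscle, lung and testis forms of its subunits were low in the range. Levels of different genes are given as CPM per kb of exon, as the median of 22 mice. Ndufab1, Cox7c and Ndufb2, which are not such forms, were low as well, with 3.75, 6.36 and 7.38. Atp5b, the catalytic beta subunit of ATP synthase, had 593 CPM per kb, and Atp5a1, its alpha partner, had 400.1. In complex IV, Cox8a had 551 CPM per kb, Cox4i1 had 494, Cox6a1 had 479 and Cox6b1 had 343. In complex II, Sdha, the flavoprotein that oxidises succinate, had 202 CPM per kb and Sdhb, the iron-sulfur subunit, had 116. In complex III, Uqcrb had 39.2 and Uqcrfs1, the Rieske protein, had 144, and among the Ndufaf assembly factors Ndufaf2 had 4.33 and Ndufaf1 had 30.9. The order of levels depends on the run of library numbers and on the length used. Cox8a, with a median of 925 CPM per kb of exon, lay above Atp5b, with 732, in library numbers 1 to 11, and below it, with 443 against 549, in 12 to 23. Among the core genes of complex I, Ndufs1, an iron-sulfur subunit, had 28.0 CPM per kb of exon and Ndufv1 had 111, but per kb of median coding transcript, a measure chosen after the data were seen, Ndufs1 had 348 and Ndufv1 had 204. Uqcrc1, a core protein of complex III, went from 138 to 1072 CPM per kb with that measure, above Uqcrfs1, which had 144 by both.

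Where the genome holds alternative forms of a complex IV subunit, 1 form had by far the higher level. Cox4i1 lay between 236 and 904 CPM per kb over the mice, and Cox4i2, the form known from lung, between 0.983 and 5.19. Cox6a1 lay between 260 and 965 CPM per kb, and Cox6a2, the heart and muscle form, between 4.76 and 21.0. Cox6b1 lay between 192 and 595 CPM per kb, against 0.330 to 1.95 for Cox6b2, the testis form. The ranges did not overlap in any of these pairs, by either length. Cox7a2 had a median of 157 CPM per kb, its relative Cox7a2l, which helps to join complexes III and IV, had 33.2, and the muscle form Cox7a1 had 1.58. Cox8a had no measurable partner, since Cox8b did not pass the count minimum. Ndufa4, a complex IV subunit that was first assigned to complex I, had 196 CPM per kb, and Ndufa4l2 had 1.20. The 3 genes for the c ring of ATP synthase encode the same mature protein, and Atp5g3 had 155 CPM per kb, Atp5g1 had 4.30 and Atp5g2 had 0.347.

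**Figure D1:**
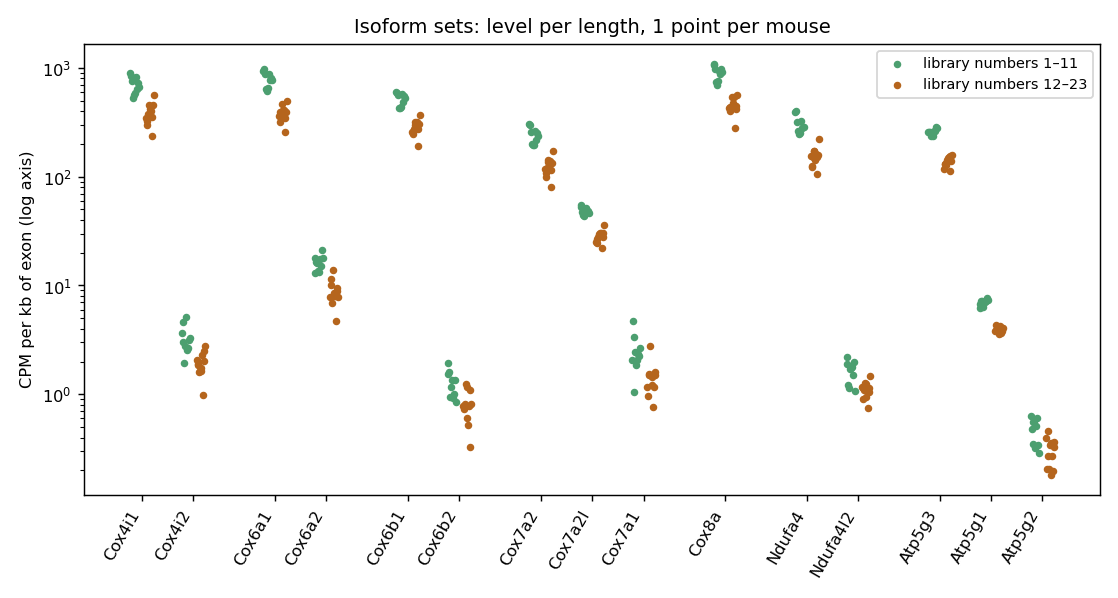
Level of alternative subunit forms in CPM per kb of exon (log axis), 1 point per mouse, green for library numbers 1 to 11 and brown for 12 to 23. Cox4i1, Cox6a1 and Cox6b1 lie above 190 in every mouse and Cox4i2, Cox6a2 and Cox6b2 below 22, and the brown points lie lower than the green points in most forms.

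Only reads that aligned to 1 place were counted, and some of these genes share sequence with others. Of the 50-base words in the annotated transcripts of Atp5g2, 38.3% also occurred in another gene, as did 25.4% for Uqcrb, 22.1% for Cox7c, 21.7% for Ndufs5 and 19.9% for Atp5h. Atp5l, the g subunit of ATP synthase, had 0.325 CPM per kb over 6443 bases of annotated exon, with a median of 71 counts, and shared 7.63% of its words with 284 other genes, of which the processed pseudogene Gm10221 held the most. Exons also overlap other genes: 65.6% of the exonic bases of Ndufaf2 and 47.9% of those of Atp5o lie in another gene, and the strand setting of the counting is not given in the sources used here. Levels and differences of these genes are uncertain, and the part of shared or overlapping sequence in them was not tested. Cox4i2, Cox6b2, Cox7a1, Cox7b2 and Ndufa4l2, also low, shared 0 words.

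Stimulated and control mice differed little in these genes. In a fit with the group and the run of library numbers as terms, 71 of 91 log2 fold changes were positive (stimulated higher) and 20 negative, with a median of 0.06 against 0.01 over all genes tested, where 52.6% were positive. All genes tested in the shortest quartile of exonic length, which holds 66 of the 91, had a median of 0.04, and the part of length in this effect was not tested. The fold changes ran from -0.62 for Atp5l to 0.16 for Sdhb. At an unadjusted p under 0.05, 9 of 91 genes (9.89%) differed in the edgeR quasi-likelihood test, a share below the 11.5% of all genes tested that did. Of these, 7 were higher in stimulated mice (6.05% of all genes tested were) and 2 were lower (5.45%). After Benjamini-Hochberg adjustment over all genes 0 of the 91 remained with edgeR, as did 0 of all genes tested. With DESeq2 and limma 0 of the 91 remained too, against 0.188% and 0.00571% of all genes tested. At an unadjusted p under 0.05, DESeq2 had 11 (12.5% of all genes tested) and limma had 17 (16.3%). The smallest adjusted p of the 91 genes was 0.329 with edgeR, 0.0992 with DESeq2 and 0.13 with limma.

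The direction depends on whether the runs are held apart. With the group as the only term, 27 log2 fold changes were positive (52.5% of all genes tested were) and 64 negative, the median was -0.04, and 2 genes, Atp5l and Cox6b2, had an unadjusted p under 0.05, where 3.61% of all genes tested did. Within library numbers 1 to 11 alone the median was 0.04 with 60 positive values and 4 genes at an unadjusted p under 0.05 (5.56% of all genes tested), and within 12 to 23 alone it was 0.05 with 67 positive values and 1 gene (12.4%). The intervals give the size of what could have been missed. The 95% interval of the log2 fold change lay within -0.25 to 0.25 for 49 of 91 genes and within -0.5 to 0.5 for 86. The highest upper bound was 0.37, for Atp5e, and the lowest lower bound -1.11, for Atp5l.

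**Figure D2:**
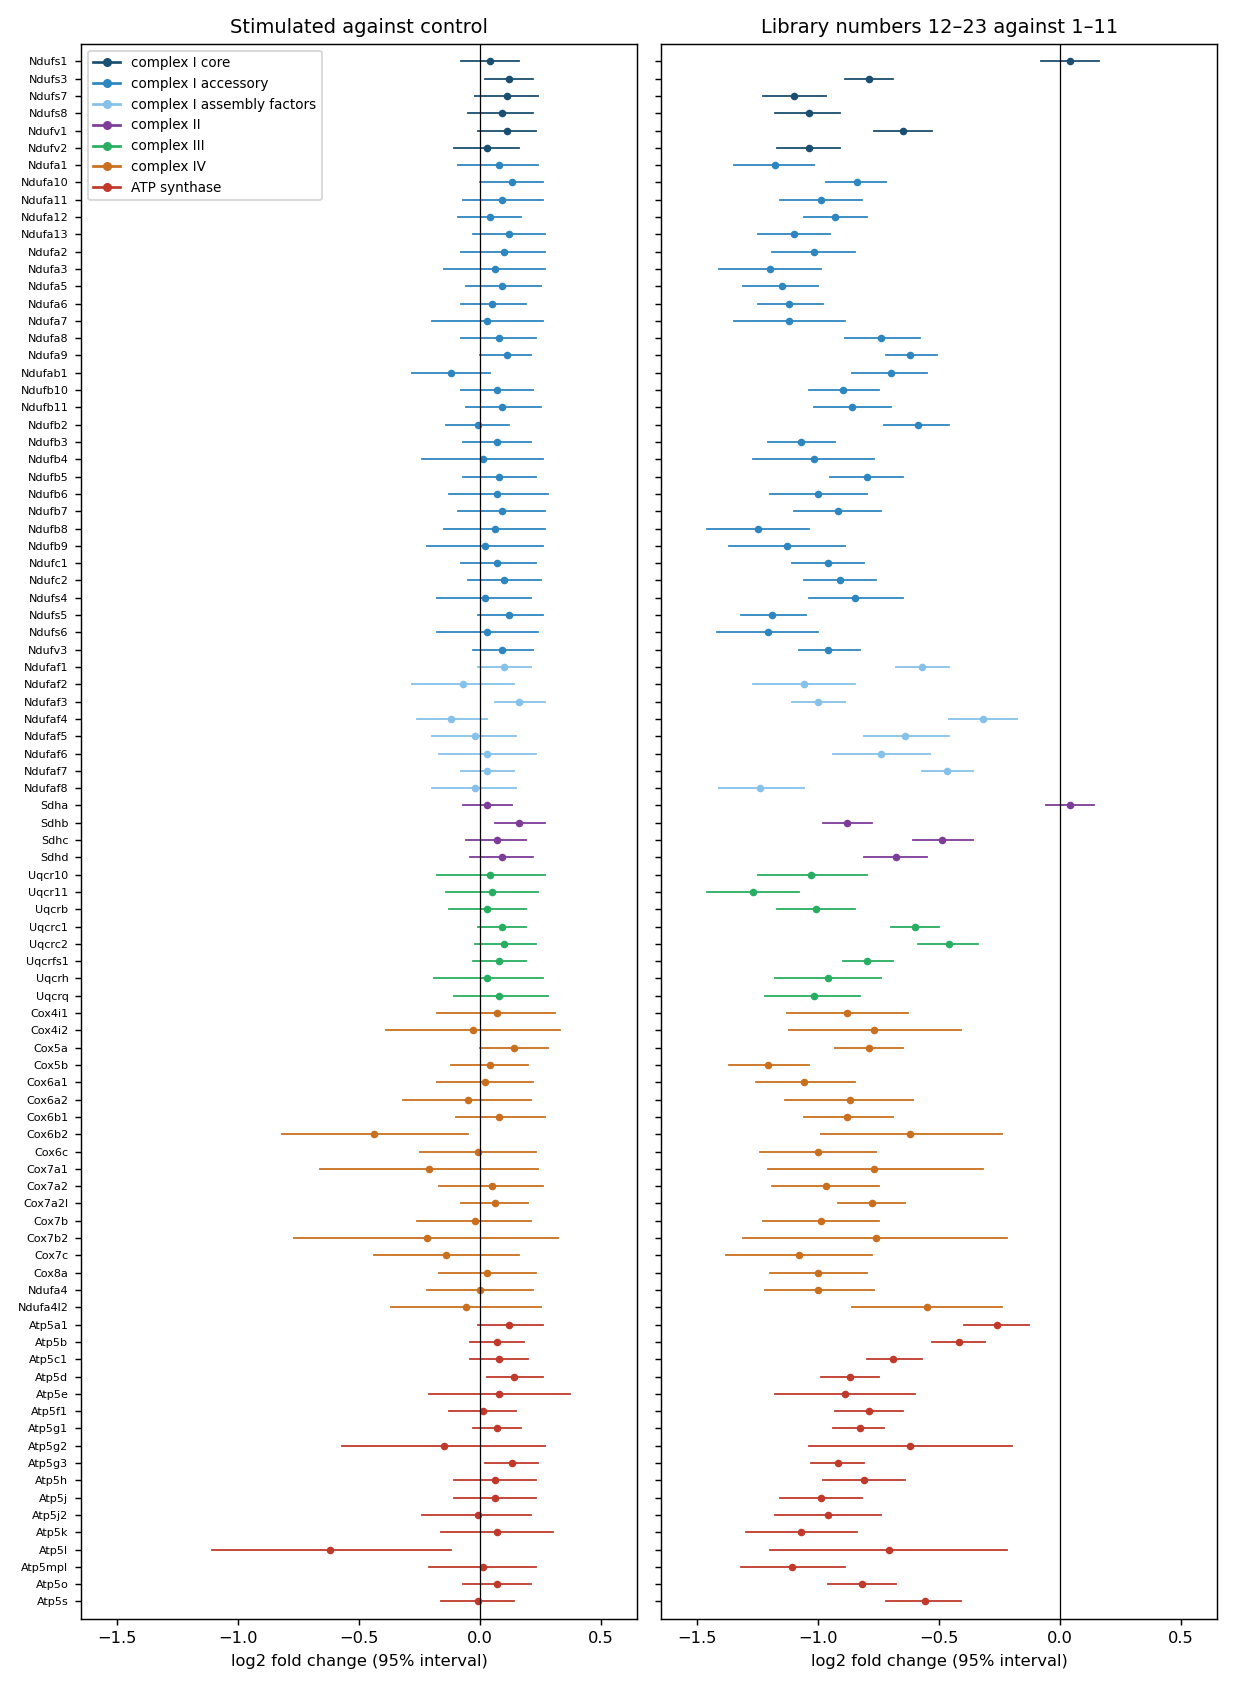
Log2 fold change with its 95% interval for the respiratory chain genes, ordered by complex and colored by complex, for stimulated against control mice (left) and for library numbers 12 to 23 against 1 to 11 (right), from 1 edgeR fit. On the left the points lie between -0.62 and 0.16 near the line at 0, and on the right all lie below it except Ndufs1 and Sdha, both at 0.04.

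By complex, the medians of stimulated against control were 0.10 for the 7 core genes of complex I, all of them positive, 0.07 for its 29 accessory genes with 27 positive, 0.08 for the 4 genes of complex II and 0.07 for the 8 genes of complex III, all positive in both. ATP synthase had a median of 0.07 with 13 of 17 positive. Complex IV had -0.01 with 8 of 18 positive, and the assembly factors 0.00 with 4 of 8 positive. Cytosolic ribosomal protein genes, which have no part in respiration, had a median of 0.06 as well, with 65 of 79 positive and 2 at an unadjusted p under 0.05.

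Sdhb on chromosome 4 (140961203 to 140979193, plus strand, GRCm38) had the smallest p. Among library numbers 1 to 11 it had 441, 444, 448 and 446 CPM in the 4 stimulated mice and 372 to 434 CPM, with a median of 393, in the 6 controls. Among 12 to 23 the stimulated mice ran from 209 to 267 CPM with a median of 248, and the controls from 186 to 227 with a median of 221. The stimulated mice thus lay above every control in the lower library numbers and overlapped them in the higher ones. The log2 fold change was 0.16 (SE 0.05), with an unadjusted p of 0.00316 and an adjusted p of 0.329 in edgeR.

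Ndufaf3, an early assembly factor of complex I on chromosome 9 (108565537 to 108567434), had 82.2, 81.7, 96.4 and 91.2 CPM in the 4 stimulated mice of library numbers 1 to 11 and 73.8 to 82.5 CPM in their controls. Among 12 to 23 it had 37.3 to 48.02 CPM in stimulated mice and 34.3 to 43.3 in controls. The groups overlapped in both runs, and the log2 fold change was 0.16 (SE 0.05, unadjusted p of 0.00428). Ndufs3, a core subunit of complex I, had 0.12 (SE 0.05), Atp5d, the delta subunit of ATP synthase, 0.14 (SE 0.06), and Atp5g3, of the c ring, 0.13 (SE 0.05). Ndufa10 and Ndufa9, accessory subunits of complex I, had 0.13 (SE 0.06) and 0.11 (SE 0.05). Their adjusted p-values in edgeR lay between 0.361 and 0.429. Cox5a, a complex IV subunit, followed with 0.14 (SE 0.07) and an unadjusted p of 0.0568. Each of these 8 positive genes from Sdhb to Cox5a had a positive value in both runs fitted alone. They were chosen by their p in the fit over the same mice, so these signs are no separate test of the direction.

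The catalytic and core genes not named above had small positive values that did not pass. In complex I, Ndufv1, which binds NADH and flavin, had a log2 fold change of 0.11 (95% interval -0.01 to 0.23). In complex III, Uqcrc1 had 0.09 (-0.01 to 0.19), Uqcrc2 0.10 (-0.02 to 0.23) and Uqcrfs1 0.08 (-0.03 to 0.19). In ATP synthase, Atp5a1 had 0.12 (-0.01 to 0.26) and Atp5b 0.07 (-0.04 to 0.18). Ndufs1 had 0.04 and Sdha 0.03. Of the less abundant forms, Cox7a1 had -0.21 (-0.66 to 0.24), Atp5g2 -0.15 (-0.57 to 0.27), Cox6a2 -0.05 (-0.32 to 0.21) and Cox4i2 -0.03 (-0.39 to 0.33), all with wider intervals than Atp5g3 (0.02 to 0.24).

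The 2 genes that were lower in stimulated mice at an unadjusted p under 0.05 are among those with the fewest counts. Atp5l had 2.80, 2.59, 1.76 and 3.16 CPM in the 4 stimulated mice of library numbers 1 to 11, against 1.06 to 5.18 in their controls, and 0.792 to 1.93 CPM against 0.970 to 3.56 among 12 to 23. Its log2 fold change was -0.62 (SE 0.24, unadjusted p of 0.0162), or 1.54-fold lower, with an adjusted p of 0.359 in edgeR. The groups overlapped in both runs, and the value was -0.36 in the lower library numbers alone and -0.87 in the higher. Cox6b2, with a median of 36 counts, had 1.03, 1.12, 1.501 and 0.940 CPM in the stimulated mice of library numbers 1 to 11 against 1.06 to 2.16 in controls, and 0.366 to 1.22 CPM against 0.808 to 1.38 among 12 to 23. Its log2 fold change was -0.44 (SE 0.19, unadjusted p of 0.0268, adjusted p of 0.383 in edgeR). Neither the abundant Cox6b1 (0.08, SE 0.09) nor Atp5k, the e subunit in the membrane part of ATP synthase (0.07, SE 0.11), had a value of that size.

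**Figure D3:**
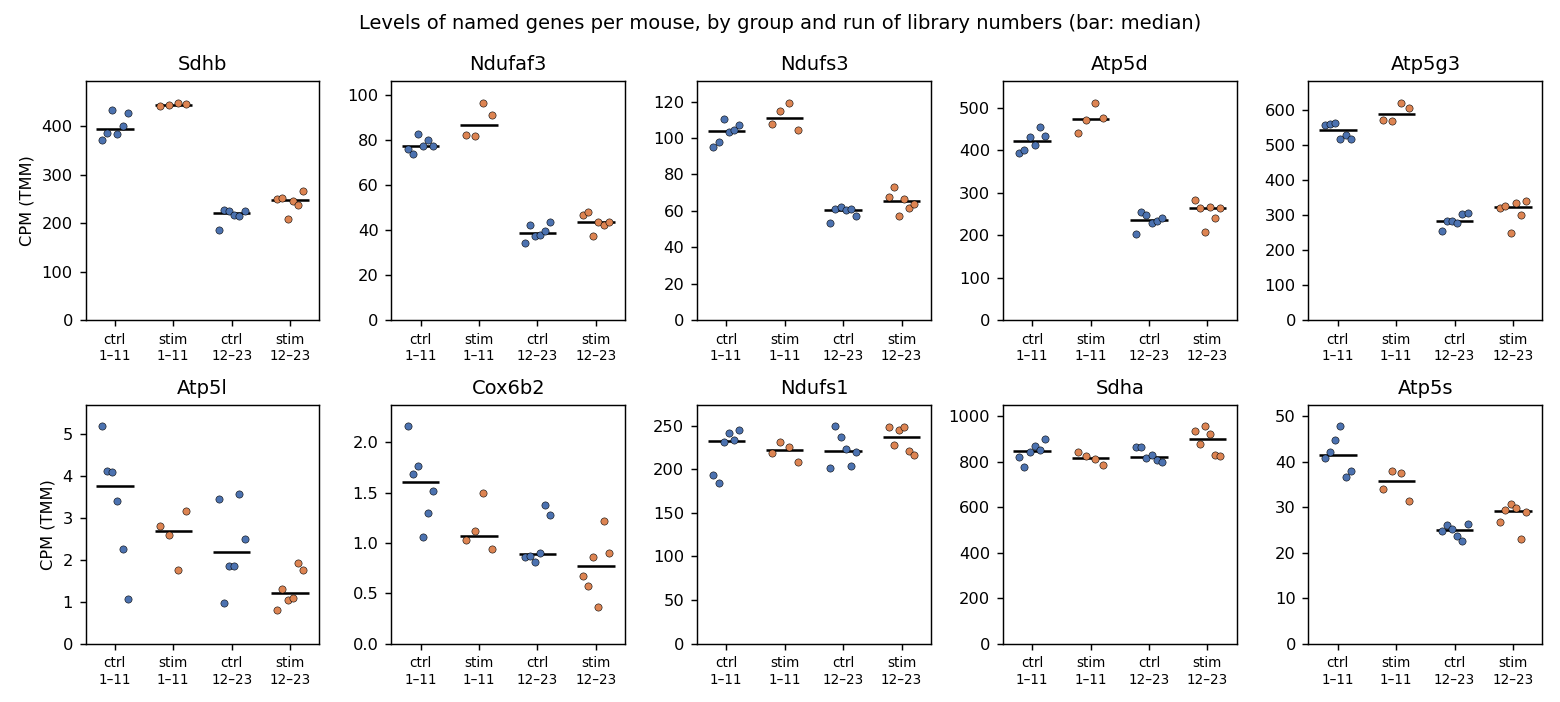
Level of 10 genes in CPM, 1 point per mouse, with bars at the medians of controls (blue) and stimulated mice (orange) for library numbers 1 to 11 and 12 to 23. Sdhb, Ndufaf3, Ndufs3, Atp5d and Atp5g3 differ far more between the runs than between the groups, while Ndufs1 and Sdha lie at similar heights in all 4 sets.

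Markers of some cell types moved with the group. Of the oligodendrocyte markers, all 6 were lower in stimulated mice at an unadjusted p under 0.05 in edgeR, none after adjustment. Among library numbers 1 to 11 they summed to 3214 to 6289 CPM in controls and 3366 to 5907 CPM in stimulated mice, with medians of 4651 and 4323. Among 12 to 23 they summed to 3445 to 19425 and 2168 to 4341 CPM, with medians of 5064 and 3410. The 3 choroid plexus and ependyma markers tested were lower too, 2 of them at an unadjusted p under 0.05, with sums of 3.89 to 134 CPM in controls and 5.46 to 17.2 CPM in stimulated mice. The runs differed in this sum, with medians of 11.2 CPM in controls and 11.6 in stimulated mice of library numbers 1 to 11, and 18.5 and 7.92 in 12 to 23. Of 6 inhibitory neuron markers, 2 were higher at that level, with sums of 590.0 to 1002 CPM in controls and 632 to 1070.0 CPM in stimulated mice. Of 5 excitatory neuron markers, 1 was higher at that level. None of the 5 astrocyte, 4 microglia, 4 endothelial and 5 striatal neuron markers passed it. The part of these cell types in the values above was not tested. Without controls 9 and 11, which had the highest oligodendrocyte sums, the median of the 91 genes was 0.08 and 15 of them had an unadjusted p under 0.05, 13 higher and 2 lower, where 8.16% of all genes tested did, and 0 passed after adjustment (0.00571% of all genes tested did). In bulk tissue, fewer cells of a type and less RNA per cell cannot be told apart.

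By far the larger difference lay between the runs of library numbers. In the same fit, 89 of 91 respiratory chain genes fell in numbers 12 to 23 against 1 to 11 at an adjusted p under 0.05 in edgeR, where 34.3% of all genes tested fell. Their median log2 fold change was -0.89, against -0.03 over all genes, and they ran from -1.27 to 0.04. In 76 of 91 genes (83.5%), every mouse of 12 to 23 lay below every mouse of 1 to 11, as in 12.2% of all genes tested. Among the controls alone, 85 genes fell (28.5% of all genes tested did) at a median of -0.92. The labels do not name the runs, so cohort, batch and preparation cannot be told apart in this difference.

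Every complex took part. The median was -0.79 for the core and -0.99 for the accessory genes of complex I, -0.58 for complex II, -0.98 for complex III, -0.88 for complex IV, -0.82 for ATP synthase and -0.69 for the assembly factors. The largest fall was in Uqcr11, a small accessory subunit of complex III. It had 137 to 214 CPM with a median of 170 among 1 to 11 and 52.3 to 94.7 with a median of 69.1 among 12 to 23, and its log2 fold change was -1.27 (SE 0.09). Ndufb8 (-1.25), Ndufaf8 (-1.24), Ndufs6 and Cox5b (-1.21 each) came next. Atp5b fell by 0.42, from a median of 3103 to 2324 CPM, and Atp5a1 fell by 0.26, from 1368 to 1131 CPM with overlapping ranges.

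Ndufs1 and Sdha were the exceptions, which were singled out after their values were seen. Ndufs1 had 184 to 245 CPM among library numbers 1 to 11 and 202 to 249 CPM among 12 to 23, with a log2 fold change of 0.04 (SE 0.06, adjusted p of 0.539 in edgeR). Sdha had 779 to 899 and 801 to 955 CPM, with 0.04 (SE 0.05, adjusted p of 0.446). Their partners in the same complexes did fall, Ndufv1 by 0.65 in the core of complex I, and Sdhb by 0.88, Sdhc by 0.49 and Sdhd by 0.68 in complex II.

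The share of all counts shows the same in each mouse. The 91 genes took 2.06% to 2.38% of the counts in library numbers 1 to 11, with a median of 2.32%, and 1.11% to 1.53%, with a median of 1.33%, in 12 to 23. The runs did not overlap. Within 1 to 11 the median was 2.24% in controls and 2.33% in stimulated mice, and within 12 to 23 it was 1.31% and 1.35%. ATP synthase took 0.705% to 0.797% of the counts in the lower numbers and 0.437% to 0.519% in the higher, and complex IV took 0.341% to 0.522% and 0.133% to 0.282%.

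**Figure D4:**
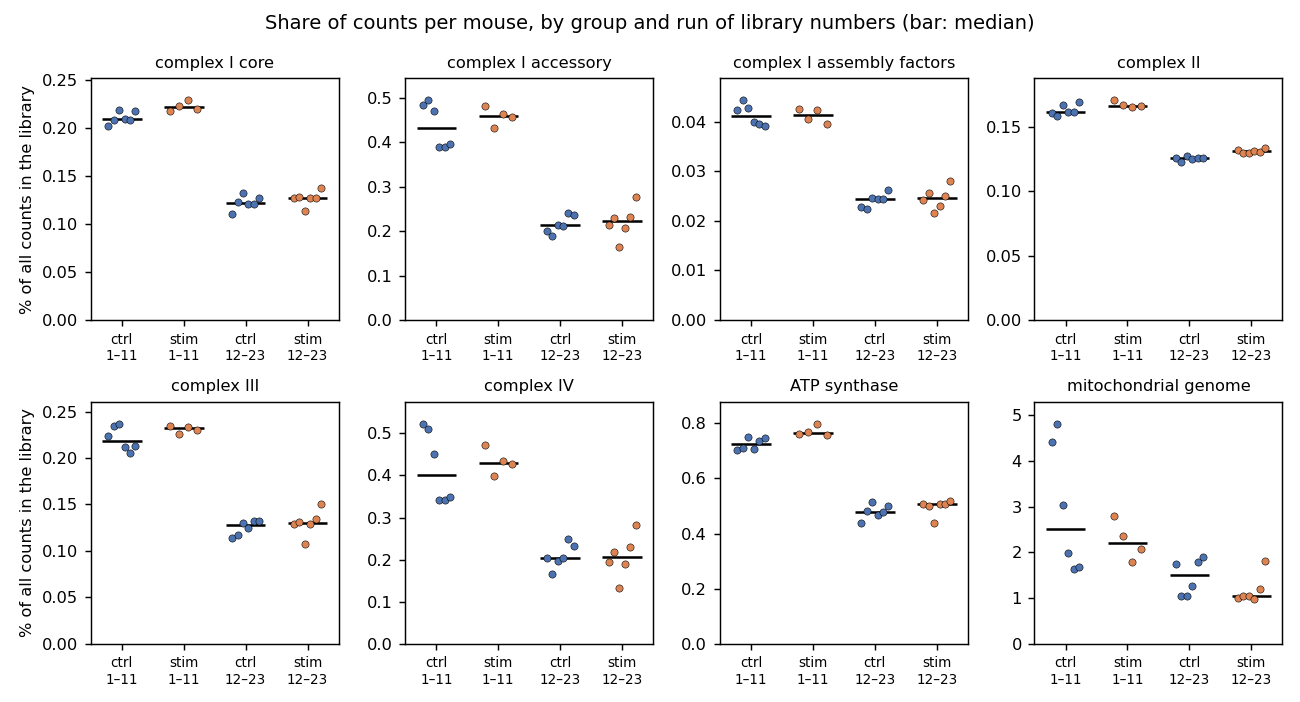
Percent of all counts taken by each complex and by the mitochondrial genome, 1 point per mouse, in controls (blue) and stimulated mice (orange) of library numbers 1 to 11 and 12 to 23, with bars at the medians and axes from 0. In each nuclear-encoded set the mice of 12 to 23 lie below those of 1 to 11, with ATP synthase at a median of 0.5001% against 0.749%.

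Transcript length moved with the run difference. The respiratory chain genes had a median exonic length of 1587 bases, against 3995 over all genes tested, and 66 of 91 were in the shortest quartile. In that quartile, all genes tested had a median run difference of -0.62 and 67.5% fell, while the respiratory chain genes had -0.96. In the longest quartile, all genes had 0.47 and the 3 respiratory chain genes there had -0.70. Across genes, which are not independent replicates, Spearman's rho between exonic length and the run difference was 0.62 over all genes with a length and 0.46 over the 91. With the median length of coding transcripts, chosen after the data were seen, rho was 0.59 and 0.57. Sdha was longer than the median of the 91 by both measures, at 4126 bases of exon and 1811 of coding transcript. Ndufs1 was longer by exons, at 8086 bases, and shorter by coding transcripts, at 651 against a median of 704. The part of length in the run difference was not tested.

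**Figure D5:**
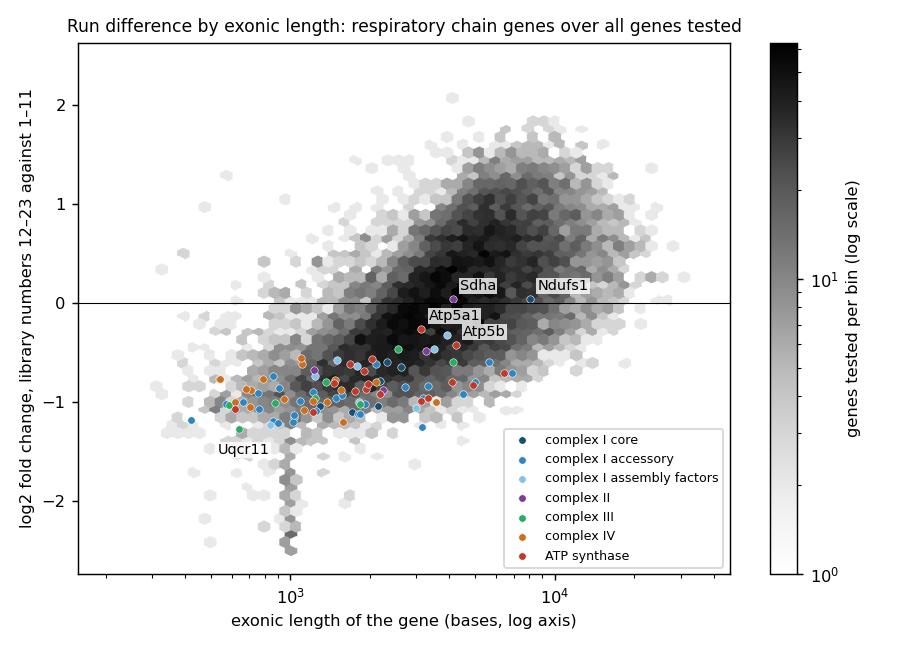
Log2 fold change of library numbers 12 to 23 against 1 to 11 (y axis) by exonic length in bases (x axis, log), with all genes tested as grey bins and the 91 respiratory chain genes as points colored by complex (genes beyond the axes are not drawn). The cloud of all genes rises with length, from a median of -0.62 in the shortest quartile to 0.47 in the longest, and most respiratory chain genes lie at short lengths near -0.89.

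Other genes of energy metabolism did not all share this pattern. Of the 8 subunits encoded by the mitochondrial genome that could be tested, 7 fell between the runs, with a median of -1.09, and all 8 were negative in stimulated against control mice, with a median of -0.30 and 2 at an unadjusted p under 0.05. Tricarboxylic acid cycle genes had a run median of -0.25, with 10 of 18 falling and 6 rising. Assembly factors outside the name rule had -0.58 with 31 of 37 falling and 1 rising, and electron carriers with quinone-linked dehydrogenases -0.49 with 16 of 18 falling and 1 rising. Regulators of mitochondrial biogenesis had 0.37, with 8 of 16 rising, where 33.7% of all genes tested rose, and 4 falling. Their median exonic length was 5293 bases, in a quartile of length where all genes had a median of 0.22. Cytosolic ribosomal protein genes, also short, had -0.88 with 78 of 79 falling. For stimulated against control the medians were 0.05, 0.02, 0.06 and 0.01 for the cycle, the other assembly factors, the carriers and the regulators, and 0 genes of any of these lists passed after adjustment in edgeR, while 2 carriers had an unadjusted p under 0.05. Markers moved between the runs too, in both directions. Of excitatory neuron markers 4 of 5 rose, with sums of 2906 to 3785 CPM among 1 to 11 and 4648 to 7409 among 12 to 23. Of astrocyte markers 4 of 5 rose. These 2 lists had median exonic lengths of 5486 and 6233 bases, in the same quartile as the regulators. Of endothelial markers 3 rose and 1 fell, of inhibitory neuron markers 2 rose and 2 fell, and of microglia markers 2 rose and 1 fell. Of choroid plexus and ependyma markers 2 rose, of striatal neuron markers 1 fell, and 0 of 6 oligodendrocyte markers passed. The part of these cell types in the run difference was not tested.

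The stimulation effect itself was compared between the runs. Of the 91 genes, 2 had an unadjusted p under 0.05 for that difference in edgeR, where 8.01% of all genes tested did. After adjustment 0 passed, as did 0 of all genes tested. Atp5s had 34.0, 37.9, 37.5 and 31.3 CPM in stimulated mice and 36.6 to 47.8 CPM in controls of library numbers 1 to 11, and 23.1 to 30.7 against 22.6 to 26.3 CPM in 12 to 23. Fitted in each run alone, the log2 fold change was -0.23 in the lower numbers and 0.15 in the higher, and the difference in the fit over all mice was 0.43 (SE 0.12, unadjusted p of 0.00188, adjusted p of 0.545). Cox6a2 had 0.26 and -0.35 in the runs alone, and a difference of -0.57 in the fit over all mice (SE 0.24, unadjusted p of 0.025), which was -0.35 with an unadjusted p of 0.126 without controls 9 and 11. All 6 oligodendrocyte markers had an unadjusted p under 0.05 for the same difference, with a median of -1.30, and their part in it was not tested.

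Within groups and runs, the genes varied together from mouse to mouse. Log2 CPM values were centred within each of the 4 sets of mice, and Pearson's r was taken over the 22 mice, which share preparation and depth, so r is given as a description. The median r was 0.57 over the 4095 pairs of respiratory chain genes, against 0.00 over pairs of all genes tested. It was 0.74 within complex I, 0.57 within complex IV, 0.52 within complex III, 0.30 among the assembly factors, 0.27 within ATP synthase and 0.18 within complex II. Counting the assembly factors as a set of their own beside the complexes, pairs within a set had 0.68 and pairs between sets 0.54. Cytosolic ribosomal protein genes partly followed the same mice. Respiratory chain genes took 2.34%, 2.36% and 2.34% of counts in controls 1 to 3, and 2.06%, 2.08% and 2.13% in controls 4 to 6. Ribosomal genes took 0.34%, 0.33% and 0.30%, and 0.22%, 0.24% and 0.25%. Among 12 to 23, stimulated 7 was lowest and stimulated 10 highest in both. The lowest control there was 7 for the chain and 8 for ribosomal genes. Whether this r is particular to the chain was not tested.

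The closest partners often crossed complexes. Cox6b1 of complex IV and Atp5j2 of ATP synthase had r of 0.99, Cox4i1 and Ndufb9 0.98, and Uqcr10 and Uqcr11 of complex III 0.98. A small set varied against the rest. Sdha had a median r of -0.62 with the other genes, Ndufs1 -0.48, Atp5a1 -0.28, Ndufa10 -0.26 and Ndufv1 -0.24. These genes were close to each other, with 0.71 between Sdha and Ndufs1, 0.88 between Ndufs1 and Atp5a1, 0.93 between Atp5a1 and Ndufv1 and 0.94 between Ndufv1 and Ndufa10. Sdhb was closest to Ndufs7 (0.90), and Ndufaf3 to Atp5d (0.81). The lowly expressed Cox6b2 was closest to Ndufb9 (0.53) and Atp5l to Ndufab1 (0.78).

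Many nuclear genes of the chain are known targets of nuclear respiratory factor 1 (NRF1) and of factors of the ETS family, and their promoters were searched for the letters of both motifs on both strands. The windows ran from 250 bases before to 50 after the start in RefSeq (GRCm38.p6), and 73 of the 91 genes had an entry. The NRF1 motif (GCGC, any 2 bases, then GCGC) was in 21 of them (28.8%), against 13.5% of the genes tested that had an entry. The ETS motif CCGGAAG was in 18 (24.7%), against 17.5%, and both were in 4 (5.48%), against 2.80%. Of the 10 genes with the smallest p for stimulation, Atp5g3 had an entry with the NRF1 motif, and its promoter is shown for that reason, from 100 bases before to 30 after the start, at chr2:73911297-73911426 on the minus strand, with the motif in capitals at bases 113 to 122. A match describes the letters and does not show that a factor binds.
Atp5g3: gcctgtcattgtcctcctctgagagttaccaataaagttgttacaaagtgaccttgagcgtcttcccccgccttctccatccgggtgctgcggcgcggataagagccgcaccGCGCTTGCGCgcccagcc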

How the data were processed

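The deposited table holds raw counts per gene, which the authors made by trimming single-end 50-base reads with cutadapt 1.10, aligning them to mm10 with STAR 2.5.3a and counting uniquely aligned reads with htseq-count 0.6.1p1 and Ensembl annotation. The authors' normalized values, fold changes and p-values in the same table were not used. Libraries were made with a full-length SMART-Seq v4 kit. Counts were tested with edgeR 4.0.16 (TMM normalization, quasi-likelihood test, R 4.3.3) on genes that reached 10 counts in 10 or more mice. Terms were the group and the run of library numbers, which stood in for the study's batch covariate; its RNA integrity covariate was not used here. DESeq2 1.42.0 and limma 3.58.1 (voom) were alternatives. P-values were adjusted by Benjamini-Hochberg over all 17524 genes, and fold changes are on the log2 scale. CPM values use TMM library sizes. Exons, lengths and overlaps came from GENCODE M21, which matched 37772 of 37786 identifiers. Genes were named by a rule: alternative subunit forms, core members, the 10 smallest p for stimulation, the 5 smallest for the difference between runs, and the extremes between runs. Some other genes, such as Atp5k, Uqcrb and Ndufaf2, were named outside this rule. The genes and lists were chosen with earlier results of these data known. On simulated counts for stimulated against control with 17291 genes, the test recovered, at an adjusted p under 0.05, 65.0% of changes of 0.5 log2 and 94.9% of changes of 1 log2. The values of 1 gene are not reported here, though it is counted in the totals.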

Additional observations from a re-analysis of the deposited data

Results flagged for a closer look

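Among 110 sets of 4 or 6 mice examined by Dixon's test, 4 held a mouse that stood apart, and chance gives about 1 set in 20. In stimulated mouse 7, ATP synthase genes took 0.437% of all counts, against 0.50% to 0.52% in the other stimulated mice of library numbers 12 to 23. In the same mouse Cox6a2 had a log2 CPM of 1.72, against 2.42 to 2.69. In control 7, Sdhb had a log2 CPM of 7.54, against 7.75 to 7.83 in the other controls of that run, and Cox5a had 5.86, against 6.19 to 6.38.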

How the results depend on the processing

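For stimulated against control, the number of respiratory chain genes at an unadjusted p under 0.05 was 9, and it was 2 with the group as the only term, 17 with limma voom and quality weights, 15 without controls 9 and 11, 4 in library numbers 1 to 11 alone and 1 in 12 to 23 alone. With the group as the only term 27 values were positive and the median was -0.04; the construction of that fit leaves the unequal split of the runs in the group effect. The runs fitted alone have fewer mice. Otherwise the cause was not tested. The replicate numbers do not pair mice: the mean correlation of same-numbered mice was 0.0511 once group and run means were removed, against -0.00472 for other pairs. Blocking on the replicate number, which drops the run term and controls 11 and 12, gave 5 genes (7.37% of all genes tested), 4 positive values (51.2%), a median of -0.10, and 0.00 for Sdhb and Ndufa9, -0.02 for Ndufaf3 and Cox5a, -0.03 for Atp5d, -0.04 for Ndufs3 and Atp5g3 and -0.05 for Ndufa10. In that blocked fit, replicates 5 and 6 set controls of library numbers 1 to 11 against stimulated mice of 12 to 23. Its construction thus leaves part of the run difference in the group effect. Between the runs, 0 values were positive with at least 10 counts in every mouse (Ndufs1 and Sdha at -0.02), and 1 among controls alone (Sdha at -0.03). The difference of the group effect between runs had 1 gene without controls 9 and 11 (3.97% of all genes tested). No alternative gave a respiratory chain gene an adjusted p under 0.05 for stimulation, and of the alternative values of the main counts and medians 63 kept within the limits set, 11 moved and 2 turned sign, all of them given above. Without a count minimum, all genes tested shifted to a run median of -0.20, and the 91 genes had -0.88. Genes with few counts, such as Atp5l, had the widest intervals.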
